A study of Rattus norvegicus with 8 samples.

Results

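The mitosis and spindle genes are 38 genes of cell division, taken by gene name from the 26204 distinct names on a rat expression array. All 38 were found, and a gene with several probes was read from its brightest one. RNA from whole ovaries of immature female rats was hybridised to 8 arrays of 1 colour, 4 labelled PMSG and 4 labelled control. PMSG, the serum gonadotropin of pregnant mares, acts mainly through the follicle-stimulating hormone receptor. By the treatment protocol in the labels, females received subcutaneous PMSG at an age of 26 days, at a dose of 50 IU dissolved in 0.2 ml phosphate buffer with albumin. Control females received the same volume of buffer. Ovaries were collected after 48 h, at 28 days of age. The titles call the control samples untreated, and the strain and genotype are not given in the sources used here. The labels do not say whether each sample was 1 animal or a pool, so p-values measure only the spread between these samples. The groups were taken from the titles. Genes of the hormone response ran against the direction generally known for PMSG, with log2 differences (PMSG-labelled minus control-labelled) of -3.36 for Cyp11a1, -2.75 for Star, -1.93 for Lhcgr and 3.03 for Amh, so every direction is written by array label. Whether the labels of the groups were exchanged, which would reverse every direction, was not tested.

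Entry into mitosis is driven by the kinase CDK1 bound to cyclin B, after phosphatases of the CDC25 family remove inhibitory phosphates. Aurora and Polo-like kinases, kinesin motors and microtubule proteins then build the spindle. The spindle checkpoint holds back the anaphase-promoting complex until every kinetochore is attached, and a central spindle complex guides cytokinesis. Most of these genes are transcribed late in the cell cycle and are low in cells that do not divide. In the immature ovary granulosa cells of growing follicles make up much of the dividing population. The oocyte is arrested in meiotic prophase and stores messages of several of the same genes. In bulk RNA, fewer cells of a type and less RNA per cell cannot be told apart.

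A level here is the log2 signal of a probe minus the 75th percentile of its array, so that a difference of -1 means that the signal was 2-fold lower. All 38 members were well above background on all 8 arrays, and no spot was saturated. In arrays labelled PMSG, 15 members were lower (39.5%) and 0 were higher at an adjusted p under 0.05 (limma, Benjamini-Hochberg over 25303 tested probes). Of all tested probes 16.6% were lower and 17.6% were higher. The remaining 23 members did not pass the test. The median difference of the members was -0.42, or 1.34-fold, against 0.11 over all tested probes. The differences were negative for 36 of the 38 members, against 42.0% of all tested probes, and they ranged from -1.14 to 0.27. Only Cdc25c was called lower with a difference of at least 2-fold, as were 4.60% of all tested probes. With normexp background correction its difference was -0.54, under 2-fold.

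In 11 members all 4 PMSG-labelled arrays lay below all 4 control-labelled arrays, as in 18.6% of all tested probes. The median SE of a member's difference was 0.17, and the median SD between arrays was 0.19 in the control-labelled group and 0.27 in the PMSG-labelled group. The number of members called depended on single arrays. It was 8 without control array 1 (21.1%, against 13.2% of all probes), 6 without control array 2 (15.8% against 13.2%), 6 without control array 4 (15.8% against 13.0%) and 9 without PMSG array 2 (23.7% against 14.9%). It was 20 without PMSG array 1 (52.6% against 14.4%).

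**Figure D1:**
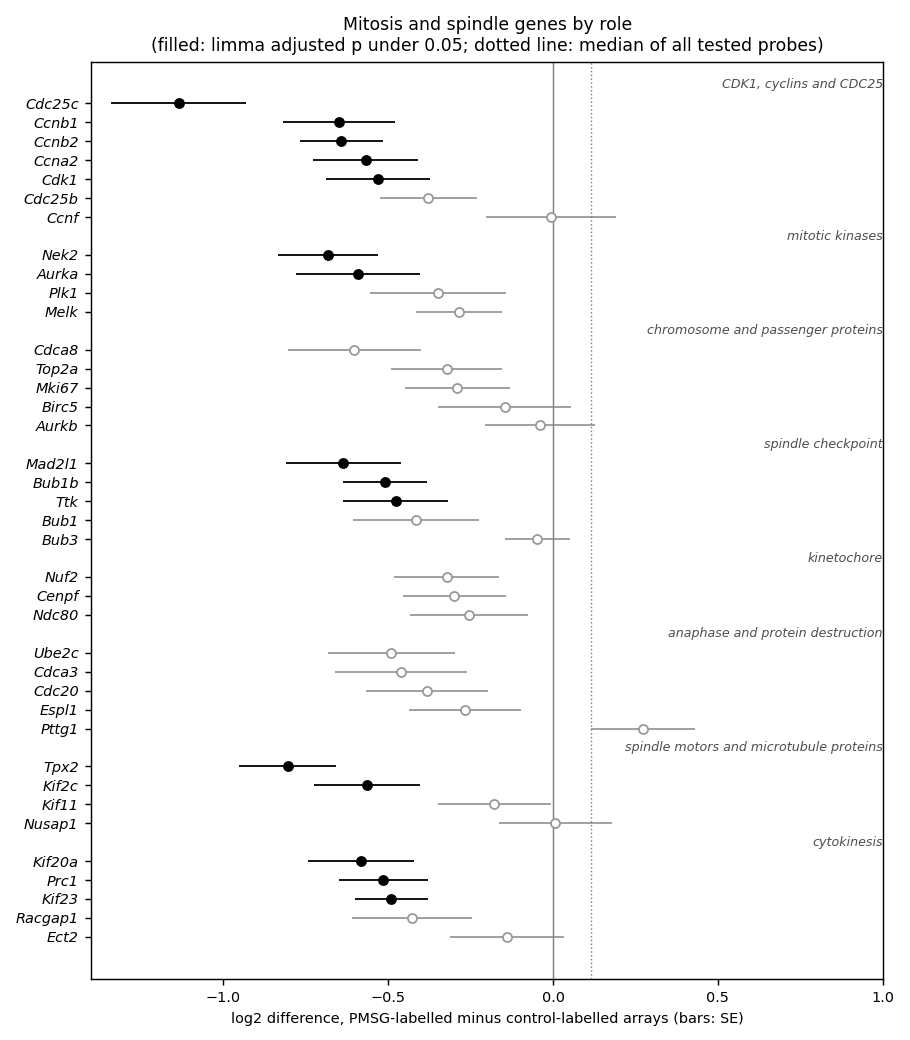
Log2 difference between PMSG-labelled and control-labelled arrays for each of the 38 members, grouped by role, with its SE as a bar. Filled points passed the limma test, and 36 points lie to the left of 0, while the dotted line marks the median of all tested probes at 0.11.

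Among CDK1, its cyclins and the CDC25 phosphatases, 5 of 7 genes were lower, with a group median of -0.57. Of all tested probes 16.6% were lower. Counts by role, here and below, cover few genes each and were not compared between roles. Cdc25c, a phosphatase that activates CDK1 at mitotic entry, had the largest difference of all members at these signals, which are not corrected further for background. Its probe (rn4 chr18:27208637-27208696) read -3.56, -3.35, -3.42 and -3.03 on control arrays 1 to 4, and -4.52, -4.94, -4.01 and -4.44 on PMSG arrays 1 to 4. Every PMSG-labelled array was below every control-labelled one, and the difference was -1.14 (SE 0.20, 2.20-fold, limma adjusted p = 0.00362). The probe was dim, and with normexp background correction its difference was -0.54 (adjusted p = 0.0123), smaller than that of Tpx2 (-0.70) or Ccnb1 (-0.65). The other mitotic phosphatase of the set, Cdc25b, had a difference of -0.38 that did not pass (adjusted p = 0.0811 in limma). A second, dimmer Cdc25b probe was lower by itself, at -0.67 (adjusted p = 0.0172).

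The cyclins B, which give CDK1 its mitotic activity, were both lower. Ccnb1 (chr2:31574809-31575048) read 1.40, 1.50, 1.22 and 1.52 on the control arrays and 1.04, 0.29, 0.86 and 0.85 on the PMSG arrays. The groups did not overlap, with PMSG array 2 far below the rest, and the difference was -0.65 (SE 0.17, adjusted p = 0.0197 in limma). The call was lost without control array 2 (adjusted p = 0.0555) or control array 4 (0.0562). Ccnb2 (chr8:74896165-74896224) read -0.06, 0.06, -0.22 and 0.10 against -0.54, -0.92, -0.72 and -0.51. It did not overlap either, and its difference of -0.64 (SE 0.13, limma adjusted p = 0.00559) held under 18 other ways of processing, which are those listed with the methods except the slide column as a block.

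Cdk1 itself (chr20:20043755-20043814) read 3.39, 3.46, 3.10 and 3.54 against 3.06, 2.47, 2.96 and 2.87. The highest PMSG-labelled array was just below the lowest control-labelled one, and the difference was -0.53 (SE 0.16, limma adjusted p = 0.0320). Without control array 1, 2 or 4 or PMSG array 2 the adjusted p ran from 0.0579 to 0.0873, and it was 0.0806 after quantile normalization. Ccna2, the cyclin of S phase and early mitosis, read 2.48, 2.66, 2.32 and 2.68 against 2.34, 1.68, 1.87 and 1.98. Here PMSG array 1 was above control array 3, so the groups overlapped, and the difference was -0.57 (SE 0.16, limma adjusted p = 0.0252). The call was lost without control array 1, 2 or 4 or PMSG array 2 or 3 (adjusted p from 0.0519 to 0.0710). A second Ccna2 probe gave -0.54. Ccnf, a cyclin that serves as a ubiquitin ligase subunit, had a difference of -0.01 (SE 0.20).

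Promoter sequence was set beside these values because genes of late cell cycle phases are known to share the CHR (cell cycle homology region, searched as TTTGAA or TTCGAA) and CCAAT boxes, which bind the DREAM and B-MYB complexes and NF-Y. Both motifs were searched on both strands in 300-base windows from RefSeq (build GRCr8), from 250 bases before to 50 after the annotated gene start. The windows numbered 34 for 33 members. The stretches below run from 120 bases before the start to 30 after it, 5′ to 3′ on the gene's strand, with motif letters in capitals. They show Cdk1 and 3 of its activators described above, a cytokinesis gene, and then the 2 members whose difference was not negative, Pttg1 and Nusap1.
Cdc25c: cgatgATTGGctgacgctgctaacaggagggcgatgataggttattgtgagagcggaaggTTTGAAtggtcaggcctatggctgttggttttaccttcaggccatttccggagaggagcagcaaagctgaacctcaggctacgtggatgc
Ccnb2: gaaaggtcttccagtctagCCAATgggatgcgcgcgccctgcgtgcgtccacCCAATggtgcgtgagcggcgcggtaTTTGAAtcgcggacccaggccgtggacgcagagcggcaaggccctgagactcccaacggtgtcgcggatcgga
Ccnb1: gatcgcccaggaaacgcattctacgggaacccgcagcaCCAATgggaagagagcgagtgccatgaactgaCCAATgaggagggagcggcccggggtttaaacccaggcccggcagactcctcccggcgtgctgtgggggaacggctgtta
Cdk1: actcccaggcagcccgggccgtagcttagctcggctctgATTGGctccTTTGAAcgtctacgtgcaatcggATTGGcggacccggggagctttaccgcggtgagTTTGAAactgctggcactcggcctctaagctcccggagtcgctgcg
Prc1: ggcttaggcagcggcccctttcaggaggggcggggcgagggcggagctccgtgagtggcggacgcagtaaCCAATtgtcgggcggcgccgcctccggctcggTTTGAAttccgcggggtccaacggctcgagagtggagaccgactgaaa
Pttg1: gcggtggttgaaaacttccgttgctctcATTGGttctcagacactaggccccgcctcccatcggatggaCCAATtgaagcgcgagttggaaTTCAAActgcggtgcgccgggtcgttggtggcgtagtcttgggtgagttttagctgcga
Nusap1: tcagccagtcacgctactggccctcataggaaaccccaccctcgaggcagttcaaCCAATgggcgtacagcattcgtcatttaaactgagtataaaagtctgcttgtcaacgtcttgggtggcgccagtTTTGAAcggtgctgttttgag

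The stretches lie at chr18:26630263-26630412 (minus strand) for Cdc25c, chr8:79981629-79981778 (minus) for Ccnb2, chr2:33655196-33655345 (minus) for Ccnb1, chr20:19265173-19265322 (plus) for Cdk1, chr1:143659361-143659510 (plus) for Prc1, chr10:28406297-28406446 (minus) for Pttg1 and chr3:127057175-127057324 (plus) for Nusap1, all on GRCr8. CHR letters were found in 24 of the 34 windows (70.6%), and in 19.7% of all 33469 windows of the table. In the part that starts 100 bases before the gene start they were in the same number of member windows, 24, and in 8.86% of all windows. CCAAT was found in 25 member windows (73.5%, against 37.5%), and both motifs in 20 (58.8%, against 7.95%). A pair of CCAAT boxes 30 to 36 bases apart, as in Ccnb1 and Ccnb2, was found in 7 member windows (20.6%, against 1.62%).

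CHR letters were in 8 of 14 windows of members called lower (57.1%) and in 16 of 20 windows of members that did not pass (80.0%). Pairs of CCAAT boxes at that spacing were in 5 of 14 (35.7%) and 2 of 20 (10%). The spacing was not part of the plan, and these counts depend on its bounds. Ttk, called lower, with CCAAT at 67 and 30 bases before its start, fell just outside it. Kif2c gave 2 of the windows of members called lower. In Ccnb2, which was lower, CHR letters started 43 and 214 bases before the gene start, with CCAAT at 68, 101 and 134 bases before it. Pttg1, with the highest difference of the set, had CHR letters at 29 bases and CCAAT at 51, 92 and 243 bases before its start. Ccnb1 had CCAAT at 50 and 82 bases and no CHR letters in its window. The windows of Bub1, Aurka, Melk and Kif2c held neither motif. A match of letters is a description of the sequence and not a measured binding site.

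**Figure D2:**
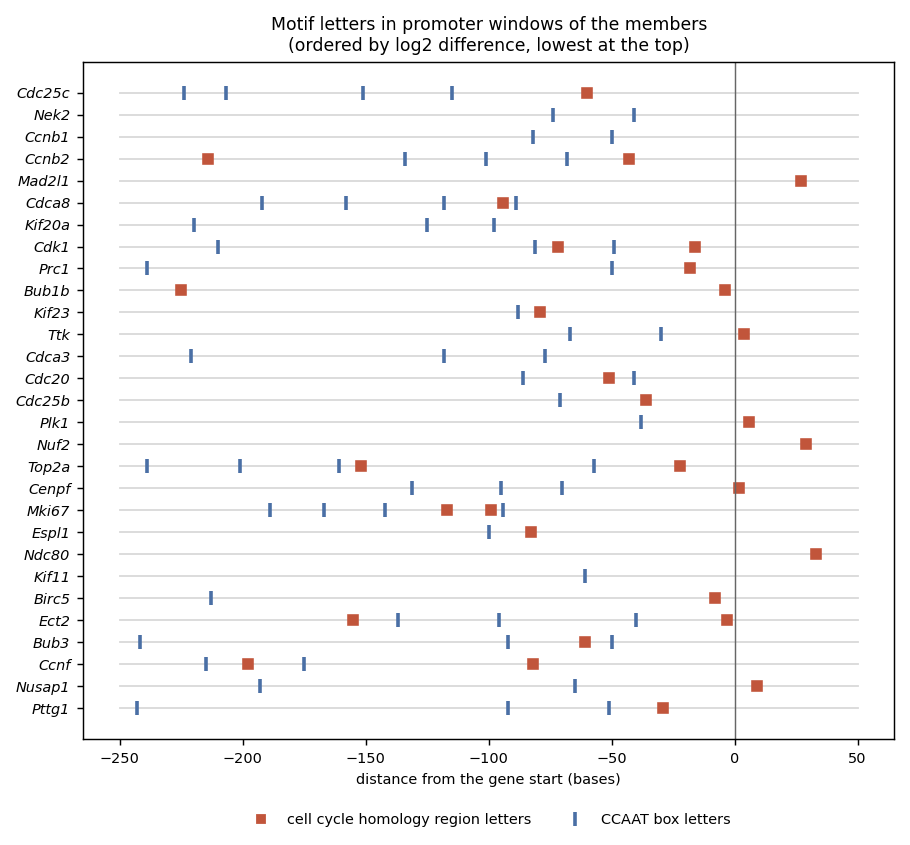
Position of CHR letters (squares) and CCAAT (ticks) in the promoter windows of the members that hold either motif, in bases from the gene start, with genes ordered by log2 difference. Each of the 24 windows with CHR letters holds them in the part from 100 bases before the start on, from Cdc25c at the top to Pttg1 at the bottom.

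Of the 4 other mitotic kinases, 2 were lower, against 16.6% of all tested probes, and the group median was -0.47. Nek2, a kinase that separates centrosomes, read -4.05, -3.71, -3.93 and -3.87 on the control arrays and -4.51, -4.59, -4.27 and -4.93 on the PMSG arrays. The groups did not overlap, and the difference was -0.68 (SE 0.15, limma adjusted p = 0.00982). The signal was dim, and with normexp background correction the difference was -0.24 and did not pass (adjusted p = 0.127). A second Nek2 probe gave -0.62 and missed the threshold (adjusted p = 0.0552). Aurka, which matures centrosomes and activates the spindle assembly pathway, read 1.44, 1.47, 0.99 and 1.43 against 1.19, 0.49, 0.80 and 0.50. Control array 3 fell among the PMSG-labelled values, and the difference was -0.59 (SE 0.19, limma adjusted p = 0.0420). The Aurka call held in 7 of the same 18 alternatives, and it was lost without any 1 of control arrays 1, 2 and 4 or PMSG arrays 2, 3 and 4 (adjusted p from 0.0699 to 0.105). Plk1, the Polo-like kinase, had a difference of -0.35 (adjusted p = 0.220), and Melk one of -0.28 (0.124), and neither passed.

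No member of the chromosome and passenger group passed, and the group median was -0.29. With 16.6% of all tested probes lower, no call among so few genes is no result about the group. Mki67, the Ki-67 antigen that coats mitotic chromosomes and is the usual stain for dividing cells, read 2.87, 3.01, 2.58 and 2.78 against 2.66, 2.12, 2.62 and 2.69. The groups overlapped, with only PMSG array 2 set apart, and the difference was -0.29 (SE 0.16, limma adjusted p = 0.188). Its 3 probes (chr1:195310145-195310204 the brightest) gave -0.29, -0.31 and -0.47, and the dimmest of them was lower (adjusted p = 0.0289). Top2a, the topoisomerase that untangles sister chromosomes, read 2.17, 2.29, 1.71 and 2.34 against 2.02, 1.67, 1.59 and 1.94. These values overlapped as well, with a difference of -0.32 (SE 0.17, limma adjusted p = 0.172).

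The subunits of the chromosomal passenger complex, which corrects faulty attachments, did not share a value. Cdca8, the borealin subunit, read -3.13, -2.51, -3.32 and -2.89 against -3.27, -3.85, -3.44 and -3.71. PMSG array 1 was above control array 3, and the difference of -0.60 (SE 0.20) lay at the threshold (limma adjusted p = 0.0502). Birc5, the survivin subunit, had a difference of -0.15 (SE 0.20), and Aurkb, the kinase of the complex, one of -0.04 (SE 0.17).

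In the spindle checkpoint 3 of 5 members were lower, against 16.6% of all tested probes, and the group median was -0.48. Mad2l1, which inhibits CDC20 at unattached kinetochores, read -0.02, -0.13, -0.43 and 0.26 against -0.45, -0.84, -0.61 and -0.98. Control array 3 was just above PMSG array 1, without overlap, and the difference was -0.64 (SE 0.18, limma adjusted p = 0.0245). Without control array 1, 2 or 4 or PMSG array 2 the adjusted p of Mad2l1 ran from 0.0532 to 0.0621. Bub1b, the BubR1 component of the same inhibitor, was lower, at -0.51 (SE 0.13, adjusted p = 0.0160), a call that held when any 1 array was left out. Ttk, the MPS1 kinase that starts the checkpoint signal, had a difference of -0.48 (limma adjusted p = 0.0481). The Ttk call held in 8 of the same 18 alternatives. It was lost without any 1 of control arrays 1, 2 and 4 or PMSG arrays 2, 3 and 4 (adjusted p from 0.0609 to 0.124).

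The probes of the remaining checkpoint genes went apart. The bright probe of Bub1, a kinase of the outer centromere, had a difference of -0.41 and did not pass (adjusted p = 0.126 in limma), while a much dimmer probe of the same gene was higher, at 0.62 (0.0394). Bub3, which docks BUB1 and BubR1, had a difference of -0.05 (SE 0.10) at its brightest probe and -0.33 at a second (limma adjusted p = 0.0399), and the third probe was above background on no array and was not tested.

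The kinetochore genes and the genes of anaphase gave 0 calls in 8. With 16.6% of all tested probes lower, 0 in so few genes is no result about these groups. Nuf2 and Ndc80, both of the NDC80 complex that grips microtubules, had differences of -0.32 (SE 0.16) and -0.25 (SE 0.18), and Cenpf, a transient kinetochore protein, one of -0.30 (SE 0.16). Of the anaphase genes, Ube2c, the ubiquitin-conjugating enzyme of the anaphase-promoting complex, had -0.49 (limma adjusted p = 0.0826), Cdca3 -0.46 (0.110), Cdc20, the activator of that complex, -0.38 (0.141) and Espl1, the separase that cuts cohesin, -0.27 (0.248). Pttg1, securin, which inhibits separase until anaphase, was the only member of these groups with a positive difference. It read 3.84, 4.07, 3.72 and 4.06 on the control arrays and 4.58, 3.96, 4.19 and 4.06 on the PMSG arrays (rn4 chr10:28527480-28527539). The groups overlapped, with PMSG array 1 highest, and the difference of 0.27 (SE 0.16) did not pass (limma adjusted p = 0.208).

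Of the spindle motor and microtubule genes 2 of 4 were lower, against 16.6% of all tested probes, and the group median was -0.37. Tpx2, which activates Aurora A on spindle microtubules, had the second largest difference of the members. It read -0.80, -0.36, -0.69 and -0.53 on the control arrays and -1.12, -1.66, -1.42 and -1.41 on the PMSG arrays (chr3:143232410-143232469). The groups were well apart, and the difference was -0.81 (SE 0.15, limma adjusted p = 0.00392). Kif2c, a kinesin that takes microtubules apart at centromeres, was lower, at -0.56 (SE 0.16, adjusted p = 0.0279), with its second probe at -0.61. The Kif2c call was lost without control array 1, 2 or 4 or PMSG array 2 or 3 (adjusted p from 0.0658 to 0.0779). Kif11, the motor that pushes spindle poles apart, had a difference of -0.18 (SE 0.17). Nusap1, which bundles spindle microtubules, read 0.80, 1.05, 0.65 and 1.01 against 1.27, 0.56, 0.96 and 0.76, with wide overlap and a difference of 0.01 (SE 0.17) that turned to -0.07 after median centring.

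The cytokinesis genes were lower in 3 of 5 cases, against 16.6% of all tested probes, with a group median of -0.49. Kif20a, a kinesin that brings Polo-like kinase to the central spindle, read 1.25, 1.49, 1.10 and 1.42 against 0.89, 0.33, 0.79 and 0.94. The groups did not overlap, and the difference was -0.58 (SE 0.16, limma adjusted p = 0.0241), with the call lost without control array 2 (adjusted p = 0.0691) or 4 (0.0670). Prc1, which bundles the midzone microtubules, was lower, at -0.51 (SE 0.14, limma adjusted p = 0.0201), and its second probe at -0.71. The Prc1 call was lost without control array 1, 2 or 4 (adjusted p from 0.0507 to 0.0603). Kif23, the motor of the centralspindlin complex, read 0.04, 0.04, -0.32 and -0.07 against -0.49, -0.66, -0.61 and -0.50. It had the smallest SE among the members called, and its difference of -0.49 (SE 0.11, limma adjusted p = 0.0105) held in those 18 alternatives. The other centralspindlin subunit, Racgap1, had a difference of -0.43 that did not pass (adjusted p = 0.102), and Ect2, the exchange factor it recruits, had one of -0.14 (0.550).

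**Figure D3:**
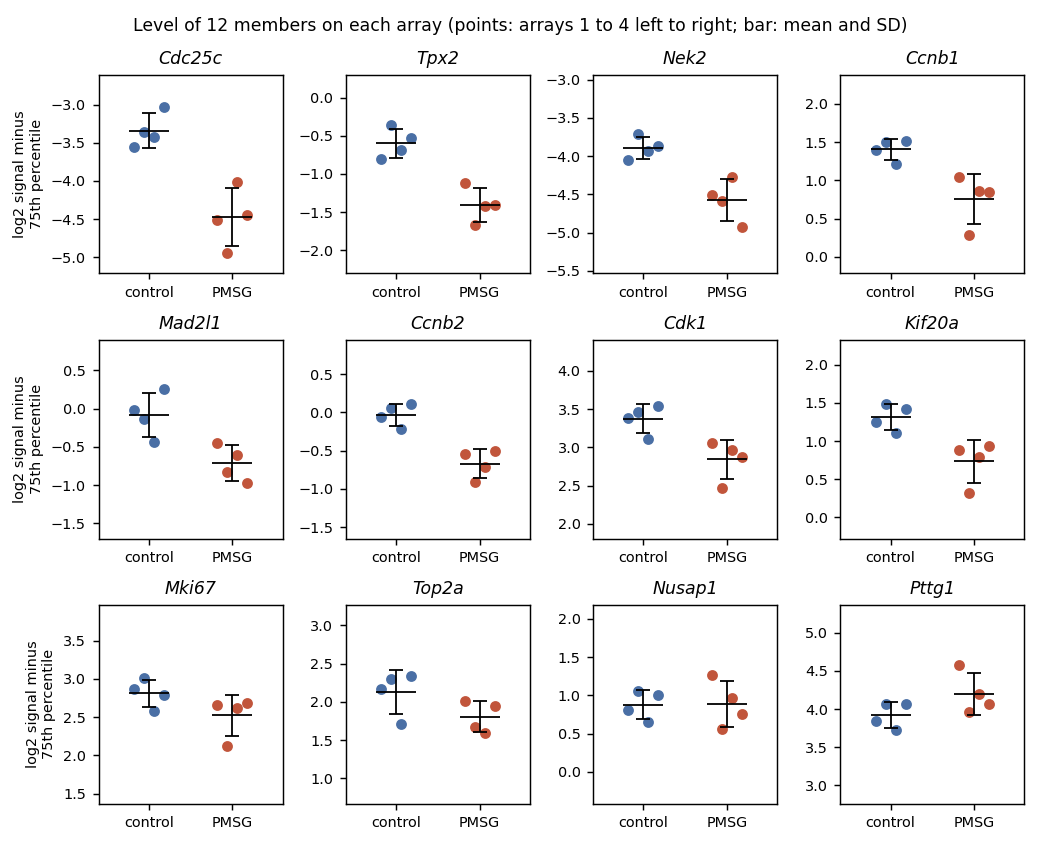
Log2 level (signal minus the 75th percentile of the array) of 12 members on each control-labelled and PMSG-labelled array, with mean and SD as bars, and the same height of scale in each panel. In Cdc25c, Tpx2 and Nek2 the groups stand apart, while in Mki67, Top2a, Nusap1 and Pttg1 they overlap.

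Within each group the members moved together from array to array. Their mean level was 0.67, 0.86, 0.48 and 0.81 on control arrays 1 to 4 and 0.54, 0.05, 0.35 and 0.28 on PMSG arrays 1 to 4. The mean over members thus overlapped between groups, since PMSG array 1 was above control array 3. Control array 3 was the lowest control-labelled array for 32 of the 38 members, and for 22.2% of all tested probes. PMSG array 2 was the lowest of its group for 31 members, against 19.0% of all probes, and PMSG array 1 the highest for 26, against 24.9%. The mean level of 9 granulosa cell markers was 2.11, 2.48, 1.68 and 2.43 on control arrays 1 to 4, the order of the member means on those 4 arrays. On PMSG arrays 1 to 4 it was 2.24, 2.22, 2.33 and 1.89, where the order differed from that of the members. Among the control arrays the mean of 7 theca markers was also lowest on array 3 (0.99, against 1.14 to 1.22), and the means of the remaining marker lists were not. The mean of 5 red blood cell markers was 1.49 on control array 3 and between -0.11 and 0.31 on the other control arrays. The part of any of these cells in the member values was not tested.

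When each level was taken relative to the mean of the 38 members on the same array, the median SD fell from 0.19 to 0.089 in the control-labelled group and from 0.27 to 0.16 in the PMSG-labelled group. That scale is a description with no test, because the members set their own mean. On it Cdc25c was lower, at -0.74, Tpx2 at -0.41, Nek2 at -0.28 and Ccnb1 at -0.25. Pttg1 was higher by 0.67 and Nusap1 by 0.41. The probes of Cdc25c and Nek2 were dim, and their unscaled differences were smaller with normexp background correction, as given above. The level of Pttg1 minus that of Ccnb1, a pair chosen after the values were seen, was 2.44, 2.57, 2.50 and 2.55 on the control arrays and 3.53, 3.67, 3.33 and 3.21 on the PMSG arrays. Each level is that of a different probe, so only the change of this value between arrays can be read. It varied less within each group than either gene did, and all 4 values of the PMSG-labelled arrays were above those of the control-labelled arrays.

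**Figure D4:**
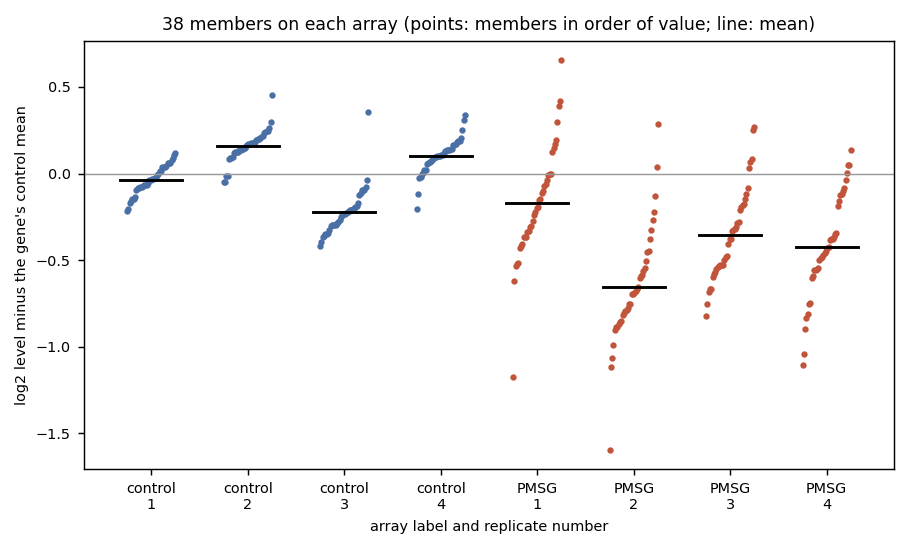
Each member's log2 level on each array minus that gene's mean over the control-labelled arrays, with members in order of value and the mean as a line. The whole set shifts from array to array within a group, lowest on PMSG array 2, and PMSG array 1 lies above control array 3.

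The arrays lay on 1 slide, and each group had 2 arrays in each of 2 slide rows. In row 1, with control arrays 2 and 4 and PMSG arrays 2 and 3, the median of the members was -0.67 and 36 were negative. In row 2, with control arrays 1 and 3 and PMSG arrays 1 and 4, it was -0.16 and 29 were negative. Of all tested probes 39.9% were negative in row 1 and 48.35% in row 2, with medians of 0.17 and 0.02. Of the 38 members 35 were more negative in row 1, but members move together from array to array and are not separate results. Row 1 held PMSG array 2, the lowest of its group for 31 members. Row 2 held control array 3, the lowest of its group for 32. The matching share of all probes more negative in row 1 was not computed. With 2 arrays against 2, limma called 6 members lower in row 1 (15.8%, against 4.45% of all probes) and 0 of all probes in row 2. The difference between rows was itself tested as an interaction, which was called for 0 members and 0 of all probes (lowest member adjusted p = 0.994 in limma). With 2 arrays of each group in each row, that test could miss a difference, so it does not show that the rows were alike. With the slide column as a block, a fit added after the values were seen in which 2 of 4 columns hold 1 group only, limma called 0 members (5.87% of all probes were lower), and the lowest member adjusted p was 0.0762. Cdc25c was -1.28 in row 1 and -0.99 in row 2, and Nek2 -0.64 and -0.73, while Top2a was -0.68 and 0.04 and Bub1 -0.81 and -0.02.

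Of 184 other genes of cell division and DNA replication, listed by role, 174 were found on the arrays and 168 were tested. Of these 40 were lower (23.8%) and 19 were higher, with a median of -0.23. Of all tested probes 16.6% were lower and 17.6% were higher. The counts of each list below are to be read beside these shares, and a count near them is no result about the list. In the list of other spindle, centrosome and cytokinesis genes 12 of 33 were lower and 1 was higher (median -0.33). Trip13, an ATPase that turns off the checkpoint protein MAD2, was lower, at -1.68 (SE 0.15, limma adjusted p = 2.25e-04). Gtse1, a microtubule protein of G2 and S phase, was lower, at -1.14 (SE 0.31), and Stil, which builds centrioles, was at least 1.84-fold lower, since it was above background on 1 of 4 PMSG-labelled arrays. Of other centromere and kinetochore genes 7 of 30 were lower (23.3%) and 2 higher (median -0.28). Among those lower were Cenpi at -0.84 (SE 0.15) and the centromeric histone Cenpa at -0.75 (SE 0.16). Oip5, a loader of that histone, was at least 1.65-fold lower (above background on 2 of 4 PMSG-labelled arrays).

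Genes of DNA replication were lower in 13 of 31 cases (41.9%, against 16.6% of all tested probes) and higher in 0 (median -0.34). Tk1, thymidine kinase, was lower, at -1.34 (SE 0.17), and Rrm2, the small subunit of ribonucleotide reductase, at -1.01 (SE 0.12). Of the condensin and cohesin genes 2 of 19 were lower and 4 higher (median -0.09, or 0.05 with normexp background correction). Both counts are near the shares of all tested probes (16.6% lower, 17.6% higher) and are no result about the list. The condensin II subunit Ncapg2 was lower, at -0.76 (SE 0.15) and the condensin I subunit Ncapd2 at -0.70 (SE 0.14), while the cohesin loader Nipbl was higher by 1.11 (SE 0.20). Of 13 genes of the anaphase-promoting complex, counting Ube2s, an enzyme that works with it, only Anapc10 was called, at -0.39 (SE 0.10), with a median of -0.01 over these genes. Under quantile normalization 2 of them were lower and 2 higher.

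Of 17 regulators known to act on the transcription of mitotic genes, 2 were lower (11.8%, against 16.6% of all tested probes) and 2 higher (median -0.18). Foxm1, the forkhead factor of G2, had a difference of -0.07 (SE 0.14), and Mybl2, which encodes B-MYB, one of 0.03 (SE 0.16), and neither passed. The NF-Y subunit Nfyc was lower, at -0.58 (SE 0.10, limma adjusted p = 0.00242). Rbl2, the p130 protein of the repressor complex found in resting cells, was higher by 0.85 without overlap (SE 0.09, limma adjusted p = 3.35e-04). The repressor E2f7 was higher by 0.85 (SE 0.27, limma adjusted p = 0.0405) at a dim probe. Its groups overlapped, since PMSG array 4 (-4.11) lay within the control-labelled values (-4.21 to -4.02). E2f8, of the same list, had a difference of -0.33 that did not pass (limma adjusted p = 0.362). In the list of other CDK1 control 3 of 14 were lower (21.4%) and 2 higher (median -0.17). Gmnn, geminin, was lower, at -0.82 (SE 0.13), while Ccna1 and Ccnb3, cyclins known from germ cells, were higher by 1.11 (SE 0.11) and 0.87 (SE 0.18).

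Meiotic regulators were higher in 8 of 11 tested cases and lower in 0 (median 1.49, or 0.59 with normexp background correction). Of all tested probes 17.6% were higher. The list was dim, with a mean level over its 15 genes between -5.73 and -5.51 on the control arrays. A gene dim there could enter the test through the PMSG-labelled arrays alone, as did Sycp2 below, so the count favours genes higher on those arrays. Smc1b, a cohesin subunit of meiosis, was higher by 2.06 (SE 0.24), Btg4, which directs decay of maternal messages, by 1.99 (SE 0.30), and Sycp2, of the synaptonemal complex, was at least 2.11-fold higher (above background on 1 of 4 control-labelled arrays). Markers of the oocyte were higher in 11 of 12 cases, with a mean level between -2.28 and -1.61 on the control arrays and between -0.63 and 0.16 on the PMSG arrays. The part of oocytes in the values of the members, positive or negative, was not tested.

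**Figure D5:**
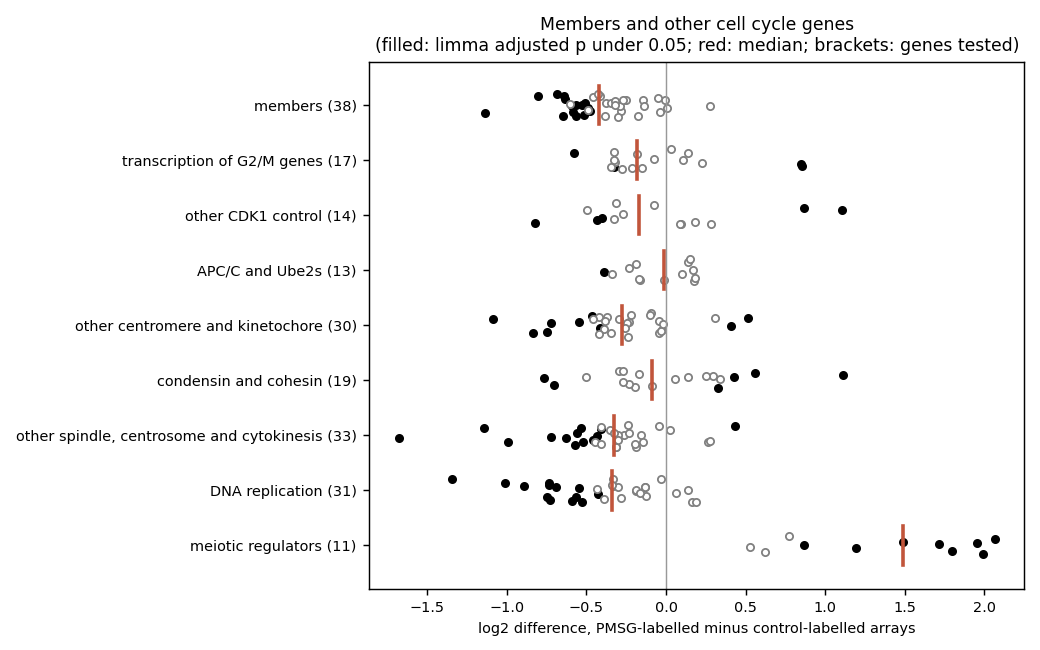
Log2 difference between PMSG-labelled and control-labelled arrays for the members and for 8 lists of other cell cycle genes, at 1 probe per gene, with the median of each list as a red bar. The members, spindle and replication lists lie mostly below 0, with medians of -0.42, -0.33 and -0.34, and the meiotic regulators lie above it at 1.49. Genes given as bounds in the text are drawn at their measured values.

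Among the markers of other ovarian cells, 5 of 10 endothelial markers were lower and 1 was higher, with a mean level between -1.21 and -0.99 on the control arrays and between -1.55 and -1.38 on the PMSG arrays. Of 9 granulosa markers 2 were lower and 1 was higher (median -0.23), and of 7 theca markers 3 were lower and 3 higher. Leukocyte markers were higher in 5 of 9 cases, fibroblast and smooth muscle markers in 3 of 8, and epithelial markers in 5 of 10, with 0 lower in each list. Epithelial markers had mean levels between -0.70 and -0.16 on the control arrays and between 0.43 and 1.05 on the PMSG arrays. Of 5 red blood cell markers 1 was lower. Over all tested probes the shares were 16.6% lower and 17.6% higher. Each tested marker of every list was above background on some array, and the part of these cell types in the member values was not tested.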

How the data were processed

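Ovary RNA was measured on 8 Agilent arrays of 1 colour. Per the file headers, the authors extracted spot intensity with Feature Extraction 11.5.1.1, and probe positions are on rn4. Log2 values per probe were deposited as well and matched log2 signal minus the 75th percentile of each array, and they were used as an alternative (columns not used numbered 0). Each array held 58717 non-control spots of 30367 probes of 60 bases. Control and outlier spots were left out, spots of a probe were averaged, and 17 probes without a usable spot on some array were dropped. The 75th percentile of signal ran from 768.9 to 1103, and between 80.8% and 84.6% of probes were above background on an array. Processed signal was taken as log2 and scaled by each array's 75th percentile.

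Probes well above background on at least 4 of 8 arrays were tested, 25303 in all. The comparison used lmFit and eBayes of limma 3.58.1 (R 4.3.3) without covariates, with Benjamini-Hochberg adjustment and a threshold of 0.05. The same steps were run on simulated data, with noise drawn independently for each probe. That run checked only the mean size of known differences, so it does not cover probes that move together from array to array. The number of arrays limits the precision.

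The members, lists and tests were chosen with earlier results of these data known, and no list was tested as a set. Values on every array are given for the 10 members with the largest difference, for those with a positive difference, and for Mki67, Top2a, Cdk1 and Ccnb1, and those of Kif23 were added after they had been seen. Of each other list the 3 genes with the largest difference past the threshold are named, of which 1 is not reported here, and Foxm1, Mybl2 and the hormone genes were added after their values had been seen. A gene above background on part of the arrays of the dimmer group is given as a bound, with each dim array at the higher of its lowest spot above background and its own value. Of the listed genes, Myb, E2f2, E2f4, Fzr1, Cenpe, Cenph, Cenpo, Cenpp, Kif14, Haus6, Ooep and Cyp19a1 were not matched by name, and Sgo1, Hmmr, Wee2, Sycp1, Sycp3 and Dmc1 were not tested because of low signal. A gene was found by its array name, by accession in 1 case and by a RefSeq synonym in 6. RefSeq (GRCr8) gave the promoter windows, and none was used for Ccna2, Aurkb, Ube2c, Tpx2 and Racgap1. Exon and UTR annotation of the probes was not used here. Alternatives were quantile normalization, median centring, normexp correction, the deposited values, other filters, all probes of a gene averaged, array weights, blocks for replicate number and slide position, and leaving out each array.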

Additional observations from a re-analysis of the deposited data

Results flagged for a closer look

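In 2 of 78 groups of 4 arrays 1 array stood far from the others, and chance alone gives about 1 in 20, or 3.9. For Aurka, control array 3 read 0.99 and the other control-labelled arrays 1.43 to 1.47, a gap of 0.922 of the group's range. For Mki67, PMSG array 2 read 2.12 and the others 2.62 to 2.69, a gap of 0.871 of the range. These are the arrays on which most members were lowest within their group.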

How the results depend on the processing

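Members were called lower in 13 to 18 cases (34.2% to 47.4%) under other normalizations, background corrections, filters and array weights. Of all probes 12.9% to 19.5% were lower under these settings, and the median of the members lay between -0.50 and -0.36. Calls held under 18 other ways of processing, the slide column block not among them, for Ccnb2, Cdc25c, Tpx2 and Kif23, and 14 members were called under none of them. With that block included, of 722 alternative values of single members, 617 kept direction and side of the threshold, 69 lost the call, 18 gained one and 18 changed sign. With the replicate number as a replicate block 8 members were called (21.1%, against 13.4% of all probes lower), and Cdk1, Ccna2, Aurka, Mad2l1, Bub1b, Ttk, Kif20a and Prc1 were not (limma adjusted p from 0.0526 to 0.0765). Same-numbered arrays were not paired by the data, since their deviations correlated by 0.0628, 0.0198, 0.131 and 0.00108, and the block lowered the probes called from 8658 to 7346. With 1 array left out, members called ran from 6 to 20 (15.8% to 52.6%), against 13.0% to 17.4% of all probes lower. The member median then ran from -0.54 to -0.33, other cell cycle genes called from 43 to 61 and all probes called from 6552 to 11382. With the slide column as a block, chosen after seeing the data, 0 members, 14 other cell cycle genes and 2983 probes passed in limma (5.87% of probes lower), and 2 of 4 columns held 1 group only. Within slide row 1 there were 6 members, 24 other cell cycle genes and 3351 probes called with a member median of -0.67, and within row 2, 0, 0 and 0 with -0.16. Signs changed for Bub1, which was 0.10 as the mean of its probes, and for 4 members with small differences. Bub3 was 0.067 after quantile normalization and 0.080 with the column block, Nusap1 -0.069 after median centring, Aurkb 0.014 with normexp and 0.016 with the column block and Ccnf 0.058 with array weights and 0.0083 with the column block. With 1 array left out Nusap1 ran from -0.12 to 0.12, Ccnf from -0.11 to 0.11 and Aurkb from -0.15 to 0.084. The cause of these shifts was not tested. All members were above background on every array, but for the dim probes of Nek2 and Cdc25c normexp correction moved the difference to -0.24 and -0.54.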
